A study of Mus musculus with 3 samples.

Results

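The Bcl-2 family genes examined here are 10 genes chosen by name from the 54532 genes of a table of messenger RNA levels, and all 10 were found, each with 1 identifier. They comprise 3 survival genes (Bcl2, Bcl2l1 and Mcl1), 2 effector genes (Bax and Bak1) and 5 BH3-only genes (Bcl2l11, Bad, Bid, Bbc3 and Pmaip1). The cells were RAW264.7, a mouse macrophage line of wild-type genotype that turns into bone-resorbing osteoclasts when given the cytokine RANKL. All cultures received RANKL for 3 days, followed in 1 by nothing more (0 h) and in the others by 10 mU/mL of the hormone TSH, thyrotropin, for 2 h or 24 h. No library of RANKL without TSH was taken at those later times, so TSH and the added time in culture cannot be told apart. There were 3 libraries, 1 per condition. The table's columns for the TSH libraries are named T1 and T2, which does not say which of them is the 2 h and which the 24 h culture, so they are called T1 and T2 here. Because each condition is 1 library of 1 cell line, no difference has a replicate check and no p-value is given. The intervals beside the values cover counting error alone.

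Proteins of the Bcl-2 family decide whether the outer membrane of the mitochondrion is breached, the step that releases cytochrome c and starts the caspases in apoptosis. Bax and Bak form the pores, the survival proteins Bcl-2, Bcl-xL and Mcl-1 hold them in check, and BH3-only proteins are stress sensors that block the survival proteins or activate the effectors directly. Osteoclasts are short-lived cells whose survival depends on cytokine signals, and Bim, the product of Bcl2l11, and Bcl-xL are known to influence their lifespan. Many of these proteins are controlled by phosphorylation and degradation, which messenger RNA levels do not measure.

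The promoters of 4 members are shown because Bad, Bak1 and Mcl1 were lower in both TSH libraries and Bid was higher in both (below). Each run is the 250 bases before a RefSeq transcription start on GRCm38.p6, 5′ to 3′ on the gene's own strand. Capitals mark the GC box GGGCGG, read on either strand.
Bad, chr19:6941611-6941860, plus strand: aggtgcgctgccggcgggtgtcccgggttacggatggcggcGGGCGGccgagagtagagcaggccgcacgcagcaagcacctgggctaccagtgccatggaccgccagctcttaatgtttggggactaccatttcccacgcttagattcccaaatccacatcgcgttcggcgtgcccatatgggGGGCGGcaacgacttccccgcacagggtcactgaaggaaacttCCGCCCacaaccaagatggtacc
Bak1, chr17:27028628-27028877, minus strand: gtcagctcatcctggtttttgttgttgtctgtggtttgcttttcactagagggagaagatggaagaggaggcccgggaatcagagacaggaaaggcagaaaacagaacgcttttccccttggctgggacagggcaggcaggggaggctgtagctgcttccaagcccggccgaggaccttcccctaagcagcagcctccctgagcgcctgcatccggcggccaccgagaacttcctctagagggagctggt
Mcl1, chr3:95658471-95658720, plus strand: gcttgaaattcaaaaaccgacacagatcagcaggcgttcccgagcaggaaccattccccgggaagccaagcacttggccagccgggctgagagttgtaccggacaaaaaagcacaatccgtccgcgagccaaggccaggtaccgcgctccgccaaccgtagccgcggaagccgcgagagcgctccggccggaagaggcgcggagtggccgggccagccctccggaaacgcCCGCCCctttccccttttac
Bid, chr6:120916825-120917074, minus strand: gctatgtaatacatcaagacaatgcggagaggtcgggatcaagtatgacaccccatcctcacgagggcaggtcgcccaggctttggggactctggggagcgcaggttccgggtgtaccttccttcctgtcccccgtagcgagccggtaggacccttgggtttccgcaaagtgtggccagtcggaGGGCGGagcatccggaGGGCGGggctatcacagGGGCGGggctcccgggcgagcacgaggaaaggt

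RefSeq windows were found for 9 of the 10 members, and where a gene had several, the one nearest the deposited gene start was read. For Bak1 the RefSeq start lies 382 bases from the deposited start, and for Bbc3 it lies 1190 bases away. The windows of both lie inside the deposited gene, so the bases before its deposited start were not read. The GC box, the site of Sp-family factors, was present in the windows of 7 of 9 members and in 32.7% of all 32851 windows. Bad and Bid held 3 matches each, Mcl1 held 1, and Bak1 and Bcl2l1 held none. G and C made up 47.6% to 76.4% of the members' windows, against a median of 52.4% over all windows. Only the window of Bcl2l1, at 47.6%, lay below that median. The set of all windows covers 27025 genes, expressed or not, and the share with a GC box was not adjusted for G and C content. TSH signals through cAMP in thyroid cells, so the cAMP response element was searched as well. Its core TGACG was present in 2 of 9 windows, those of Bcl2 and Bbc3, and in 17.8% of all windows. The full element TGACGTCA, which contains that core, was in 0 of 9 and in 1.55% of all. The AP-1 site TGANTCA was in 0 of 9 windows and in 6.75% of all. The E-box CACGTG, bound by Mitf among others, was in 1 of 9, that of Bax, and in 6.02% of all. Both strands were read for every motif. A match in these letters is a description of the window only.

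The level of each gene is given as FPKM, fragments scaled to gene length and library size, as the authors deposited it. The order of the members per length was the same at the top and the bottom in all 3 libraries, with Mcl1 first, Bax second and Bcl2 last. Mcl1, which encodes a survival protein that is made and degraded quickly, stood at 229 FPKM under RANKL alone, 208 in T1 and 215 in T2. It was 3.12 times the level of Bax under RANKL alone (95% counting interval 2.97 to 3.28). The positions of Bak1 and Pmaip1 changed places: Bak1 was 1.07 times Pmaip1 under RANKL alone (0.998 to 1.16), while Pmaip1 was 1.06 times Bak1 in T1 (0.984 to 1.14) and 1.07 times in T2 (1.0004 to 1.15). Only in T2 did this pair differ beyond counting error, at a lower limit of 1.0004. Comparisons between genes also rest on the deposited lengths, which the intervals take as exact. For Pmaip1 that length is 2646 bases, against 2732 exon bases in GENCODE M21, and the lengths of Bad differ as well (below). Bid, Bad and Bbc3 followed in that order in every library, each beyond counting error from the next. Bcl2l11 and Bcl2l1 could not be told apart under RANKL alone, at a ratio of 1.08 (0.936 to 1.24). Bcl2l11 was the higher of the pair in T1, by 1.20 times (1.04 to 1.37), and in T2, by 1.33 times (1.15 to 1.55).

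**Figure D1:**
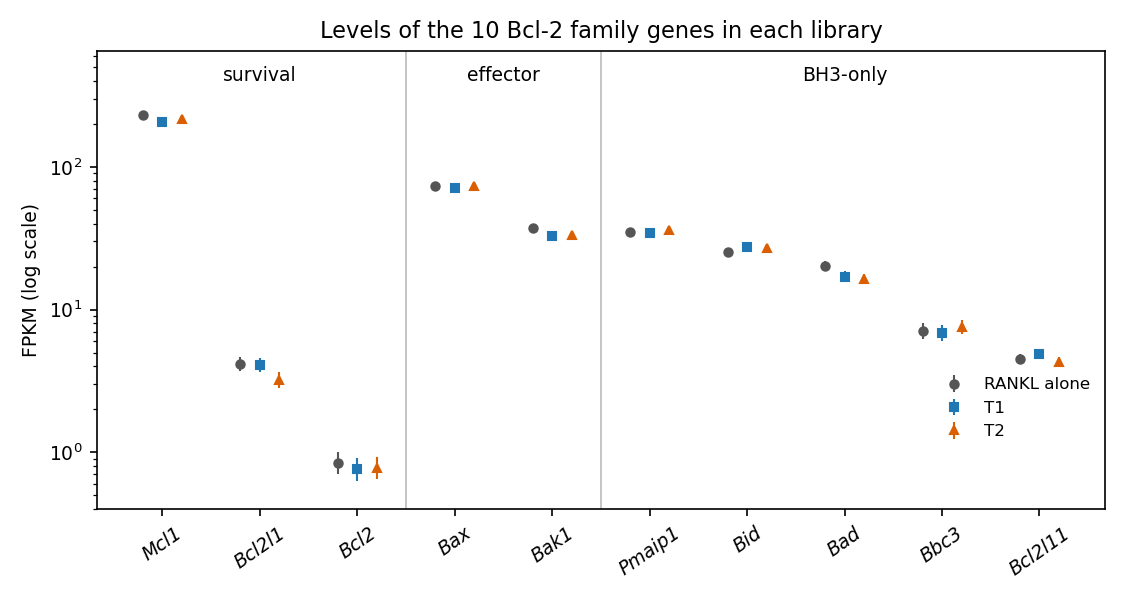
FPKM of each of the 10 genes (log scale) in the 3 libraries, with genes grouped by role and bars giving 95% counting intervals from the reads. Mcl1 lies highest, from 208 to 229 FPKM, and Bcl2 lowest, from 0.762 to 0.846 FPKM, and the libraries lie close together for every gene.

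Summed over the 10 members, survival genes made up most of their messenger RNA per length. The survival sum was 234 FPKM under RANKL alone, 212 in T1 and 219 in T2, or 53.6%, 52.2% and 52.4% of the sum over all 10. Mcl1 alone gave 97.9%, 97.7% and 98.2% of it. The effector sum was 111, 103 and 107 FPKM, and the BH3-only sum 91.8, 90.7 and 91.4 FPKM. Survival genes were therefore 2.56 times the BH3-only genes under RANKL alone, 2.34 times in T1 and 2.40 times in T2. The survival sum without Mcl1 was 5.02, 4.83 and 4.002 FPKM. These sums add different proteins and are given as levels, without an interval. Relatives outside the 10, of any role, are not in them. Among those, the survival genes Bcl2a1d, Bcl2l2 and Bcl2a1b stood at 14.9, 5.86 and 3.34 FPKM under RANKL alone (below).

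The first comparison asked how the members stood in T1 against RANKL alone. Here 3 of 10 members were lower and 1 was higher beyond counting error, meaning that the 95% interval of the ratio of FPKM left out 1. Bad, Bak1 and Mcl1 were lower and Bid was higher. Over all 11069 genes averaging 1 FPKM or more, 12.2% were lower and 10.8% higher by the same rule, 23.1% in all. Well covered genes pass it at small changes, and among the 7850 genes with at least 767 reads, as many as the least covered of the 9 members past that limit, 26.8% did. Bcl2 did not reach a mean of 1 FPKM. None of the members, 0 of 10, reached a change of 1 in log2 of (FPKM + 1), the 2-fold size rule, which 1.04% of all genes did. That scale understates the change of genes with low values. The median change of the 10 members was -0.05 in log2, against -0.0014 over all genes.

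In T2 against the same library of RANKL alone, 4 of 10 members were lower and 1 was higher beyond counting error, against 13.2% and 10.2% of all genes, 23.4% in all. Bcl2l1 joined Bad, Bak1 and Mcl1 on the lower side, and Bid was again the higher one. Among the genes with at least 767 reads 27.6% passed in either direction. The 2-fold rule was passed by 0 of 10 members and by 0.768% of all genes. The median of the 10 was -0.05, against -0.0018 over all genes. Both TSH comparisons use the 1 library of RANKL alone, so a low or high value in it enters both, and their likeness is not read as a repeat.

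**Figure D2:**
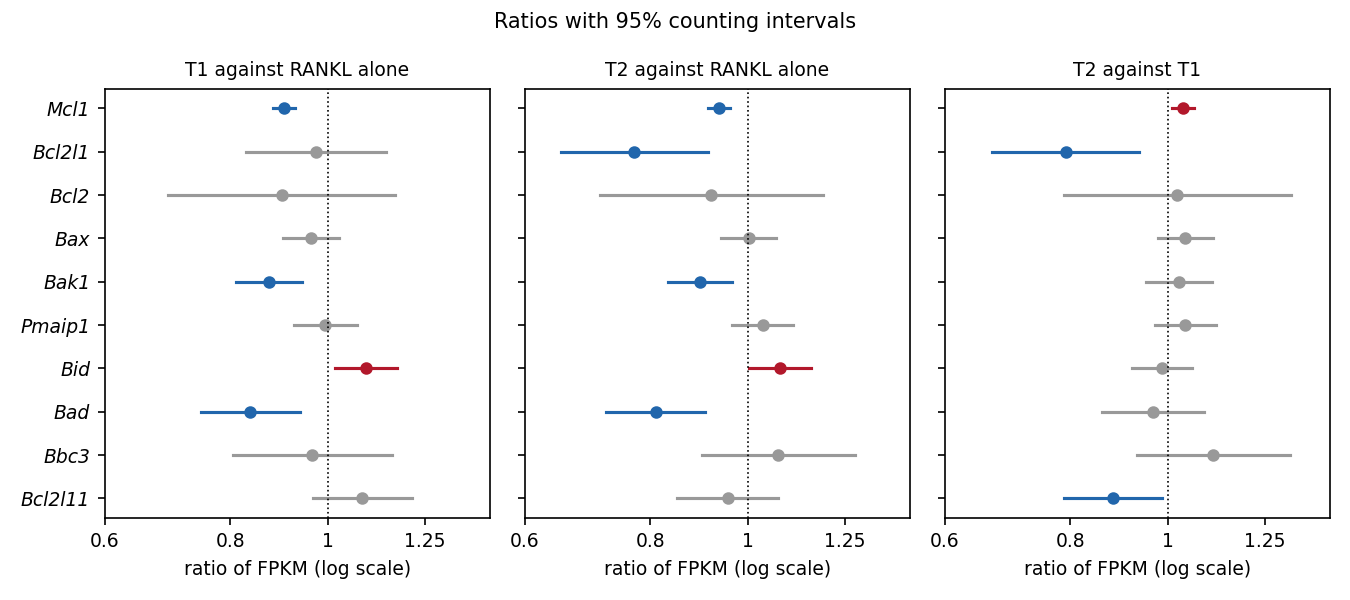
Ratio of FPKM (log scale) for each member in the 3 comparisons, with bars giving 95% counting intervals. Blue marks genes lower and red genes higher beyond counting error, and grey marks intervals that hold 1. Bad, Bak1 and Mcl1 lie left of 1 in both TSH libraries, and Bcl2l1 lies left of 1 in T2 at 0.771.

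Among the survival genes, Mcl1 (chromosome 3, 95658788 to 95663176, GRCm38) had 12650 reads under RANKL alone, 11893 in T1 and 12875 in T2. Its ratio to RANKL alone was 0.904 (0.882 to 0.927) in T1 and 0.937 (0.914 to 0.960) in T2. RANKL alone was the highest of the libraries and T1 the lowest. With so many reads a change this small passes the counting interval. Of all genes, 26.4% moved at least as far in T1 and 44.2% in T2.

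Bcl2l1 (chromosome 2, 152780668 to 152831728), the gene of Bcl-xL, stood at 4.18 FPKM under RANKL alone, 4.07 in T1 and 3.22 in T2, from 309, 313 and 259 reads. T2 was low, and the other libraries lay close together. The ratio to RANKL alone was 0.974 (0.830 to 1.14) in T1 and 0.771 (0.651 to 0.913) in T2. The latter, -0.29 in log2, was the largest change of any member, and 8.17% of all genes moved at least as far in that comparison.

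Bcl2, the founding member of the family, was the lowest, at 0.846, 0.762 and 0.779 FPKM from 125, 117 and 125 reads. Its ratios were 0.900 (0.694 to 1.17) in T1 and 0.920 (0.712 to 1.19) in T2. At this depth a change smaller than these intervals was not detectable.

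Of the effectors, Bax lay within counting error and Bak1 was lower in both TSH libraries. Bax stood at 73.5 FPKM under RANKL alone, 70.8 in T1 and 73.7 in T2, with ratios of 0.963 (0.903 to 1.03) and 1.003 (0.941 to 1.07). Bak1 (chromosome 17, 27019810 to 27029009) stood at 37.4, 32.7 and 33.5 FPKM from 1450, 1318 and 1413 reads. RANKL alone was the highest library. The ratio of Bak1 to RANKL alone was 0.874 (0.811 to 0.943) in T1 and 0.897 (0.833 to 0.966) in T2. The exons of Bak1 overlap those of Ggnbp1 on the other strand over 437 bases. They also overlap a further gene model of that name over 177 bases. The identifier of that further model was not found among the authors' values, so its reads are not known. Ggnbp1 held 54, 68 and 67 reads, and the part of the shared bases in the result for Bak1 was not tested. Changes at least as large were seen in 18.1% of all genes in T1 and 24.6% in T2.

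The BH3-only genes went different ways. Bad (chromosome 19, 6941861 to 6951898), whose product is held inactive by phosphorylation and 14-3-3 proteins when growth factors are present, stood at 20.3 FPKM under RANKL alone, 17.0 in T1 and 16.5 in T2. These came from 658, 573 and 579 reads. Both TSH libraries were below RANKL alone and close to each other. The ratio was 0.838 (0.748 to 0.938) in T1 and 0.810 (0.723 to 0.907) in T2, and 11.6% and 8.41% of all genes moved at least as far. Bad lies antisense to Gpr137, a membrane protein gene, with 524 shared exon bases in GENCODE M21. That model gives Bad 2558 exon bases and the deposited length is 2007, so whether the counted gene held the shared part is not known. Gpr137 stood at 8.33, 8.83 and 8.16 FPKM, with T2 lowest and T1 highest. How the authors' counting treated strand is not given in the sources used here, so reads of any shared part cannot be assigned with certainty.

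Bid (chromosome 6, 120891930 to 120916853) links death receptors to mitochondria, since caspase-8 cleaves its product into an active form. It stood at 25.1 FPKM under RANKL alone, 27.4 in T1 and 27.0 in T2, from 1437, 1631 and 1681 reads, under RANKL alone the lowest. The ratio was 1.09 (1.02 to 1.17) in T1 and 1.08 (1.003 to 1.16) in T2, and 33.0% and 40.4% of all genes moved at least as far. Both calls were close to the limit: with a 99% interval neither held (0.994 to 1.20 and 0.981 to 1.18), and with the libraries rescaled to the same total the T1 ratio was 1.07 (0.998 to 1.15). Bid shares 628 exon bases with its antisense neighbour Bcl2l13, a distant family member, which had 1088, 1206 and 1227 reads. The ratio of Bcl2l13 was 1.07 (0.981 to 1.16) in T1 and 1.04 (0.956 to 1.13) in T2. The part of these shared bases in the result for Bid was not tested.

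Bcl2l11, the gene of Bim, stood at 4.49 FPKM under RANKL alone, 4.87 in T1 and 4.29 in T2, from 582, 655 and 604 reads. T1 was the highest library and T2 the lowest. Its ratios of 1.08 (0.967 to 1.21) and 0.955 (0.851 to 1.07) both held 1. The p53 targets Bbc3, encoding Puma, and Pmaip1, encoding Noxa, were within counting error in both. Bbc3 stood at 7.06, 6.82 and 7.58 FPKM, with ratios of 0.966 (0.805 to 1.16) and 1.07 (0.900 to 1.28). Pmaip1, whose product binds Mcl-1 and promotes its degradation, stood at 34.8, 34.6 and 36.0 FPKM, with ratios of 0.995 (0.926 to 1.07) and 1.04 (0.965 to 1.11). The intervals of Bbc3 are the wider ones, since it had 242 to 282 reads against 1484 to 1669 for Pmaip1.

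**Figure D3:**
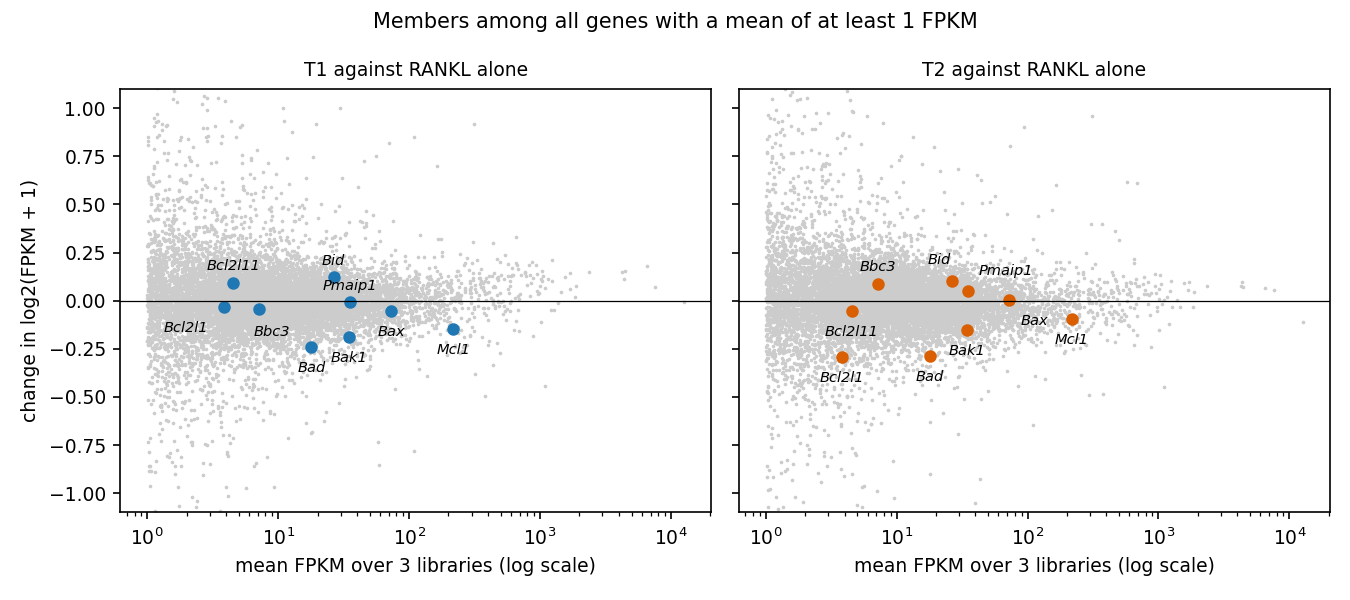
Change in log2 of (FPKM + 1) against the mean FPKM (log scale) for all 11069 genes averaging 1 FPKM or more (grey) and the 9 members among them (coloured), in T1 and T2 against RANKL alone. The members lie inside the cloud of other genes, with changes from -0.24 up to 0.12 for T1 and from -0.29 up to 0.10 for T2; 99 and 67 genes lie outside the axis.

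The third comparison, T2 against T1, set the TSH libraries side by side and does not use the library of RANKL alone. In it 2 of 10 members were lower and 1 was higher beyond counting error, against 10.1% and 7.93% of all genes, 18% in all. Bcl2l1 was lower in T2, at a ratio of 0.792 (0.669 to 0.937), and Bcl2l11 was lower at 0.882 (0.789 to 0.987). Mcl1 was higher at 1.04 (1.01 to 1.06). In this comparison 8.38% of all genes moved at least as far as Bcl2l1, 20.9% as far as Bcl2l11 and 61.3% as far as Mcl1. The call for Bcl2l11 did not hold with a 99% interval (0.762 to 1.02), nor with libraries rescaled to the same total, at 0.903 (0.807 to 1.01). Bad, Bak1 and Bid lay within counting error here, with ratios of 0.967 (0.860 to 1.09), 1.03 (0.951 to 1.11) and 0.986 (0.921 to 1.06). Among the genes with at least 767 reads 20.8% passed in either direction. The 2-fold rule was passed by 0 of 10 members and by 0.831% of all genes.

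Ratios between members within a library do not depend on how libraries were scaled, so 8 pairs of partners were read that way. The pairs were chosen after the levels had been seen. Their ratios reuse the values behind the calls above and are not separate results. No share over other pairs of genes was computed. Bid was 1.23 times Bad under RANKL alone, 1.61 times in T1 and 1.64 times in T2. That ratio was higher than under RANKL alone by 1.30 times (1.14 to 1.49) in T1 and by 1.33 times (1.16 to 1.52) in T2. Bid had been called higher and Bad lower in both TSH libraries, so this change follows from those calls and is not a separate result. Mcl1 stood 6.60 times above Pmaip1 under RANKL alone, 5.998 times in T1 and 5.97 times in T2, ratios of 0.909 (0.843 to 0.980) and 0.905 (0.840 to 0.975) against RANKL alone. Mcl1 over Bcl2l11 was 51.1 under RANKL alone, 42.7 in T1 and 50.1 in T2. It was lower than under RANKL alone in T1, by a factor of 0.835 (0.745 to 0.937), and not beyond counting error in T2, at 0.981 (0.873 to 1.102).

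Bcl2l11 over Bcl2l1, the pair of Bim and Bcl-xL, was 1.08, 1.20 and 1.33, with T2 highest and RANKL alone lowest. Against RANKL alone this was 1.11 times (0.916 to 1.35) in T1 and 1.24 times (1.01 to 1.51) in T2. Bax over Bak1 was 1.97, 2.17 and 2.20, or 1.102 times (0.999 to 1.22) and 1.12 times (1.02 to 1.23) RANKL alone. Mcl1 over Bak1, both lower in the TSH libraries, was 6.14, 6.35 and 6.42 and did not differ from RANKL alone beyond counting error in either, at 1.03 (0.956 to 1.12) and 1.04 (0.967 to 1.13).

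The other pairs set Mcl1 and Bad against Bcl2l1, whose low T2 value enters these ratios and that of Bcl2l11 to Bcl2l1. Mcl1 stood 54.9 times above Bcl2l1 under RANKL alone, 51.0 times in T1 and 66.7 times in T2. Against RANKL alone this was 0.928 times (0.792 to 1.09) in T1 and 1.21 times (1.03 to 1.43) in T2, so Mcl1 was higher relative to Bcl2l1 in T2 while it was lower relative to Pmaip1. Bad over Bcl2l1 was 4.87, 4.18 and 5.11, within counting error of RANKL alone at 0.860 (0.709 to 1.04) and 1.05 (0.860 to 1.28).

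Osteoclast and macrophage markers were read in the same libraries, to show what the culture held. The cells held both sets: 7 of 8 osteoclast and 6 of 8 macrophage markers averaged 1 FPKM or more. The summed level of the osteoclast markers was 3057 FPKM under RANKL alone, 2541 in T1 and 2465 in T2, and that of macrophage markers 1233, 1219 and 1220 FPKM. Most of the osteoclast sum came from Ctsk, at 1337, 983 and 980 FPKM, and Acp5, at 972, 857 and 822 FPKM. Of the 7 measured osteoclast markers 4 were lower and 1 higher beyond counting error in T1, and 7 were lower in T2. The higher one in T1 was Nfatc1, at a ratio of 1.05, against 0.961 in T2. Of the 6 measured macrophage markers 2 were lower and 3 higher in each TSH library. Cd68 and Csf1r, which make up most of their sum, were the lower ones, at ratios of 0.972 and 0.956 in T1 and 0.947 and 0.953 in T2. Adgre1, encoding the macrophage antigen F4/80, was higher, at 1.41 (1.08 to 1.85) and 1.34 (1.02 to 1.76), from 95, 139 and 138 reads. The lysozyme gene Lyz2 was higher too, at 1.08 and 1.15. The remaining higher marker was not the same gene in T1 and T2. In T1 it was Itgam, at 1.52 (1.15 to 2.01), against 0.888 (0.647 to 1.22) in T2. In T2 it was Cd14, at 1.102 (1.03 to 1.17), against 1.05 (0.986 to 1.12) in T1. The part of the changes in both marker sets in the lower levels of Bad, Bak1, Mcl1 and Bcl2l1 was not tested. In a bulk library, fewer cells of a type and less RNA per cell cannot be told apart. Of other cells, the osteoblast or fibroblast list had 0 of 8 and the neutrophil list 0 of 6 genes at that level, with Bglap, Col1a2, Col3a1, Ly6g and S100a9 at 0 reads in all libraries. Among lymphocyte markers 1 of 6 reached it, with Cd3e, Cd4 and Ms4a1 at 0, and among dendritic cell markers 2 of 6, with Ccr7 and Flt3 at 0.

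The rest of the family was read next, from a list of 17 further Bcl-2 relatives, of which 9 averaged 1 FPKM or more. Genes at that level are called measured, and the counts of a list cover them alone, though genes below it can hold reads. Here and in the lists that follow, counts are to be read beside the shares of all genes given above, 12.2% lower and 10.8% higher in T1 and 13.2% and 10.2% in T2. In T1 2 of these were lower and 0 higher beyond counting error, at a median of -0.12 in log2, and in T2 0 were lower and 1 higher, at a median of -0.06. With a 99% interval these counts were 1 lower in T1 and 0 higher in T2. Bnip3, a mitochondrial BH3-like protein gene induced by hypoxia, stood at 17.2 FPKM under RANKL alone, 13.7 in T1 and 15.9 in T2. It was lower in T1 at a ratio of 0.795 (0.706 to 0.894) and within counting error in T2 at 0.928 (0.829 to 1.04). The survival gene Bcl2l2, encoding Bcl-w, stood at 5.86, 4.97 and 5.35 FPKM, with ratios of 0.848 (0.736 to 0.977) and 0.912 (0.794 to 1.05). Bcl2a1d and Bcl2a1b, copies of the survival gene A1, stood at 14.9, 13.6 and 12.6 FPKM and at 3.34, 2.99 and 2.72 FPKM. RANKL alone was highest for both, but no ratio passed its interval. Their transcripts are 99.1% identical over 817 bases, so the split of reads between them is uncertain. Near-identical copies of Bnip3, pseudogenes and non-coding RNAs, held 0 to 9 reads each. The BH3-only genes Hrk and Bik had 0 reads in all 3 libraries.

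Downstream of the mitochondrion, 13 of 13 genes of the apoptosome and caspases were measured. In T1 1 was lower and 3 were higher beyond counting error, at a median of 0.05, and in T2 3 were lower and 1 higher, at a median of 0.02. With a 99% interval the higher counts were 1 in T1 and 0 in T2. Casp9, the initiator caspase gene of this route, stood at 6.08, 7.03 and 6.80 FPKM, at a T1 ratio of 1.16 (1.03 to 1.30) and a T2 ratio of 1.12 (0.992 to 1.26). Endog, a mitochondrial nuclease gene, stood at 8.92, 11.3 and 8.37 FPKM. T1 was the high library, at a ratio of 1.26 (1.02 to 1.57), and T2 was at 0.938 (0.746 to 1.18). Dffb, encoding the caspase-activated DNase, stood at 2.57, 3.01 and 2.78 FPKM and was within counting error in T1 and T2. The lower gene in T1 was Aifm1, at a ratio of 0.897 (0.844 to 0.953). In T2 the lower genes were Aifm1, at 0.902 (0.849 to 0.957), Cycs, at 0.921 (0.879 to 0.966), and Casp8, at 0.895 (0.822 to 0.974). Parp1 was higher in both, at 1.101 (1.05 to 1.15) and 1.06 (1.01 to 1.11).

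Of 11 genes of caspase inhibitors and their antagonists 8 were measured. In T1 0 were lower and 0 higher beyond counting error, and in T2 2 were lower and 1 was higher, with medians of 0.03 and 0.01. With a 99% interval T2 had 1 lower and 0 higher. Htra2, encoding a mitochondrial protease that counters inhibitors of apoptosis, stood at 41.9, 40.9 and 37.4 FPKM, with a ratio of 0.891 (0.836 to 0.949) in T2. Naip2 stood at 3.25, 3.11 and 4.004 FPKM, with a ratio of 1.23 (1.04 to 1.46) in T2. Birc5, encoding survivin, a mitotic protein, stood at 19.1, 20.7 and 20.3 FPKM and Naip6 at 1.07, 1.27 and 1.20 FPKM, both within counting error. Naip2 and Naip6 belong to a multigene family, and the identity of their transcripts was not measured.

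Death receptors and their adaptors had 7 of 11 genes measured, 1 lower and 1 higher beyond counting error in each TSH library, with medians of -0.01 in T1 and 0.02 in T2. The same genes made both calls. Tradd, the adaptor of the TNF receptor, stood at 8.64, 11.3 and 10.4 FPKM, with ratios of 1.31 (1.12 to 1.55) and 1.21 (1.02 to 1.42). Cflar, encoding FLIP, which blocks caspase-8, stood at 12.5, 11.2 and 11.5 FPKM, with ratios of 0.893 (0.845 to 0.945) and 0.916 (0.867 to 0.968). Traf2 stood at 12.9, 11.99 and 11.9 FPKM and Ripk1 at 8.64, 8.02 and 8.62 FPKM, both within counting error. Rescaled to the same total, 3 genes of this list were lower in T1, and with a 99% interval 0 were higher in T2.

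**Figure D4:**
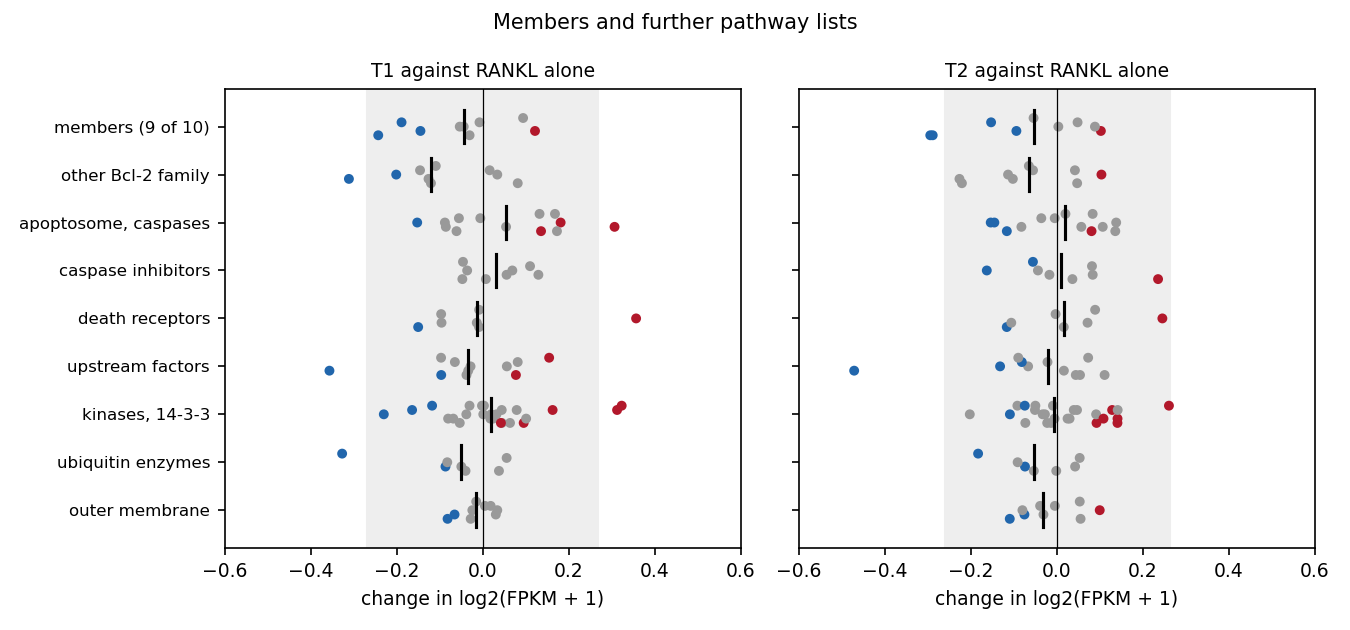
Change in log2 of (FPKM + 1) for each measured gene of the family and of 8 further lists, in T1 and T2 against RANKL alone. Blue marks genes lower and red genes higher beyond counting error, black bars give list medians and the grey band holds the central 90% of all 11069 genes; most points of every list lie inside the band.

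Transcription factors known to act on BH3-only genes, or on Bcl2 in the case of Mitf, had 11 of 13 members measured. In T1 2 were lower and 2 higher beyond counting error, and in T2 3 were lower and 0 higher, with medians of -0.03 and -0.02. The higher count in T1 was 1 with a 99% interval. Jun, an AP-1 subunit that drives BH3-only genes in stressed neurons, stood at 9.66 FPKM under RANKL alone, 7.33 in T1 and 6.69 in T2. Its ratios were 0.759 (0.663 to 0.868) and 0.693 (0.604 to 0.794), a larger change than that of any member. Mitf, which activates Bcl2 in pigment cells, stood at 15.8, 17.7 and 14.8 FPKM, with ratios of 1.12 (1.05 to 1.20) and 0.936 (0.873 to 1.004). Fos stood at 109, 113 and 99.4 FPKM and was lower in T2 at 0.912 (0.873 to 0.952), and Egr1 at 2.05, 1.97 and 2.29 FPKM was within counting error. Trp53, encoding p53, the activator of Bbc3 and Pmaip1, stood at 52.0, 54.9 and 54.0 FPKM, with ratios of 1.06 (1.01 to 1.11) and 1.04 (0.992 to 1.09).

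Kinases and 14-3-3 proteins that act on Bad, Bim and Mcl-1 were all measured, 25 of 25. In T1 3 were lower and 5 higher beyond counting error and in T2 2 were lower and 6 higher, with medians of 0.02 and -0.01. With libraries rescaled to the same total, T1 had 6 lower and 3 higher, and with a 99% interval it had 2 lower and 2 higher. With that interval T2 had 1 lower and 4 higher. Pim3, a kinase gene whose product phosphorylates Bad, stood at 22.3, 28.2 and 26.9 FPKM, with ratios of 1.26 (1.16 to 1.38) and 1.21 (1.104 to 1.32). Its relative Pim1 went the other way, at 6.32, 5.24 and 5.36 FPKM, with ratios of 0.830 (0.693 to 0.992) and 0.849 (0.711 to 1.01). Pim2 was low, at 0.887, 1.34 and 1.08 FPKM, with ratios of 1.51 (1.003 to 2.31) and 1.22 (0.794 to 1.89). Ppp3ca, a subunit gene of the phosphatase calcineurin, which dephosphorylates Bad, stood at 8.11, 7.13 and 7.80 FPKM, with ratios of 0.879 (0.812 to 0.952) and 0.961 (0.890 to 1.04).

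Enzymes that attach or remove ubiquitin on Mcl-1 and Bim had 7 of 10 genes measured, with 2 lower and 0 higher beyond counting error in each TSH library and medians of -0.05 in both. Cblb, a ubiquitin ligase gene, stood at 2.65, 1.91 and 2.21 FPKM, with ratios of 0.721 (0.624 to 0.832) and 0.836 (0.729 to 0.958). Huwe1, the gene of a ligase that marks Mcl-1 for degradation, stood at 30.1, 28.3 and 28.6 FPKM, with ratios of 0.940 (0.916 to 0.965) and 0.948 (0.924 to 0.973). RANKL alone was the highest library for both. Cbl, whose product directs Bim to degradation in osteoclasts, stood at 20.999, 21.9 and 21.8 FPKM and Fbxw7 at 4.17, 3.88 and 3.86 FPKM, both within counting error.

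The partners at the outer mitochondrial membrane had 9 of 9 genes measured, with 2 lower and 0 higher beyond counting error in T1, 2 lower and 1 higher in T2, and medians of -0.01 and -0.03. With a 99% interval the higher count in T2 was 0. Vdac1, a channel gene, stood at 125, 118 and 116 FPKM, with ratios of 0.945 (0.909 to 0.982) and 0.926 (0.892 to 0.963). Vdac2, whose product carries Bak at the membrane, stood at 107, 102 and 102 FPKM, with ratios of 0.955 (0.926 to 0.985) and 0.949 (0.920 to 0.978). Vdac3 was higher in T2, at 18.03, 18.5 and 19.4 FPKM and a ratio of 1.08 (1.01 to 1.15), and the fission gene Dnm1l, at 27.6, 27.1 and 26.0 FPKM, was within counting error.

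The genes whose changes were most like those of Bcl2l1, the member with the largest change, were Med9, Chst12 and Fscn1. Likeness was the distance between the pairs of log2 changes from RANKL alone, over 3 libraries, among 9236 named genes averaging 1 FPKM or more with at least 100 reads, and the distances were 0.012, 0.025 and 0.027. Med9 stood at 13.2 FPKM under RANKL alone, 13.0 in T1 and 10.7 in T2, Chst12 at 3.78, 3.76 and 2.90, and Fscn1 at 4.18, 4.16 and 3.26. All 3 were chosen for this likeness, so being low in T2 and close to RANKL alone in T1 is not a separate observation.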

How the data were processed

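RNA of RAW264.7 cells was sequenced in 3 libraries, 1 per condition, prepared with a SMARTer mRNA kit per the labels' protocols. The values are FPKM per gene as the authors deposited them, on GRCm38 (also named mm10) per the submitters' processing notes. What aligner and counting tool were used, and whether strand was read, is not given in the sources used here. Gene length in bases was deposited by the authors beside the values and belongs to no library. There were 0 unused per-sample columns.

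Multiplied by gene length, the FPKM of a library came in whole steps (tolerance 0.01, 100% of values above 0), and the number of steps was taken as reads: 16156926 in the RANKL-alone library, 16809034 in T1 and 17390744 in T2. From these reads came exact conditional (Clopper-Pearson) 95% intervals of each ratio and exact Poisson intervals of each level. Intervals of a change in a ratio between genes used the normal approximation on the log scale. PCR copies are not independent molecules. The highest level that a count of 0 allows in a gene of 1 kb, that of 3 reads, is 0.186, 0.179 and 0.171 FPKM. The design planned comparisons without a test, as each condition had 1 library. Changes were differences of log2(FPKM + 1) over the 11069 genes averaging 1 FPKM or more, and a count of members covers all 10.

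The members and the gene lists (109 further genes in 8 lists, and marker lists) were chosen with earlier results of these data known. Genes named were all members, up to 4 genes per list with the largest change in either TSH library among those with at least 100 reads, and the 3 genes most like the member with the largest change. A gene that this rule names is not reported here. Bcl2l13, Gpr137, Ggnbp1, Trp53, Hrk, Bik, Tnfrsf10b, Aifm1, Cycs, Casp8, Parp1, Cd68, Csf1r, Adgre1, Lyz2, Itgam, Cd14, Ctsk, Acp5 and Nfatc1 were named after their values were seen. Of the symbols, 27 had been turned into dates in the table, and the list genes among them were found by identifier. Overlaps and near-identical transcripts (BLAST+ 2.17.0, identity from 95%, alignments from 100 bases covering 50% or more of the shorter transcript) used GENCODE M21 on GRCm38, and promoters are from RefSeq, GRCm38.p6. A planned search for the BH3 motif in protein sequences was not run. The interval function was tested on simulated reads. Python 3.11.15, numpy 2.4.6, pandas 2.3.3, scipy 1.17.1 and matplotlib 3.10.9 were used. Alternatives were other scalings, pseudocounts, filters, a 1.5-fold rule and a 99% interval.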

Additional observations from a re-analysis of the deposited data

How the results depend on the processing

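Bad, Bak1 and Mcl1 in both TSH libraries and Bcl2l1 in T2 stayed lower than RANKL alone beyond counting error with libraries rescaled to the same total, with median-of-ratios scaling and with a 99% interval. Of 90 recomputed ratios of members 85 kept their call, and the other 5 were those of Bid and of Bcl2l11 given above. The count of members higher in T1 was 0 with libraries rescaled to the same total and 0 with a 99% interval, and in T2 it was 0 with a 99% interval. The count lower in T2 against T1 was 1 under each of those alternatives. The median change of the 10 members in T2 against T1 was 0.02, and the mean of members was -0.013. The 2-fold rule called 0 members under every alternative run, the 1.5-fold rule included. Rescaling to the same total moved the median of all genes from -0.0014 to -0.024 in T1 and from -0.0018 to 0.0045 in T2. Of 144 recomputed counts of the further lists, 30 moved by more than 1.5 times, all of them counts of 6 or fewer genes. The alternatives for the further lists, for the separate counts of lower and higher members and for single ratios at 99% were chosen after seeing the data. Leaving out a library was not possible with 1 per condition. Depth limits Bcl2, at 117 to 125 reads, Bbc3 and Bcl2l1 most.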
